A study of Mus musculus with 17 samples.

Results

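Open chromatin was examined at 10 genes of the cellular response to low oxygen, in kidneys of 17 male mice. The 10 genes were Hif1a, Epas1, Arnt, Vhl, Egln1, Egln3, Vegfa, Epo, Ndrg1 and Bnip3, out of 21938 protein-coding genes in the annotation. They were chosen by name for their place in the pathway, with earlier results of these data known. The control group (Ctrl, n = 5) held C57BL/6 mice of wild-type genotype, and both other groups carried Leprdb, the loss-of-function leptin receptor allele that makes db/db mice obese and diabetic. The diabetic group (Case, n = 6) held untreated db/db mice on the BKS background, from the strain named BKS.Cg-Dock7m +/+ Leprdb/J. The treated group (Dapa, n = 6) held mice of the same strain given the SGLT2 inhibitor dapagliflozin at 1 mg/kg/day. Treatment began at 8 weeks of age and lasted 6 weeks, with saline for Ctrl and Case. Because Ctrl and db/db mice differed in strain as well as in Lepr, genotype and strain background cannot be told apart in any comparison with Ctrl.

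The transcription factor HIF is a pair of an oxygen-regulated alpha subunit, encoded by Hif1a or Epas1, and a stable partner encoded by Arnt. When oxygen is plentiful, prolyl hydroxylases of the Egln family mark the alpha subunit and the Vhl protein directs its destruction. When oxygen is scarce the pair persists, binds short DNA elements with the core ACGTG or GCGTG, and turns on genes for vessel growth, red cell production, metabolism and mitochondrial turnover. The kidney medulla works at low oxygen, and interstitial cells of the kidney are the main adult source of erythropoietin.

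ATAC-seq marks DNA that a transposase can reach. Each library, made from 20000 cells, was available as a list of summits, the single bases where peaks of cut sites were highest, each with a score of statistical strength. Lists held 29702 to 56659 summits, and their length differed by group. Ctrl mice had the longest lists by median, 43012 summits, with 37402 in the shortest. Dapa lists followed, with a median of 40056.5 and a minimum of 32846. Case lists had a median of 34739 and a minimum of 29702, although the ranges of the groups overlapped. The strongest 29702 summits of each library were therefore compared. Each summit was given a rank percentile in that list, from 100 for the strongest down to 0 for no summit. Whether list length had a part in the differences from Ctrl was not tested. A gene was represented by its strongest summit between 10 kb upstream of its start and its end. In bulk tissue, fewer cells of a type and less open chromatin per cell cannot be told apart. Of 12 tubule and podocyte marker genes, 6 to 9 a library had a summit within 1 kb of a start, among them the tubule genes Lrp2, Slc12a3, Pax8 and Cdh16 in all 17 libraries, whereas Slc12a1 and Aqp2 had none. Leukocyte markers with such a summit numbered 0 of 8 in each Ctrl library, 0 to 3 in Case and 0 to 2 in Dapa, with Ptprc and Itgam at none in every library. Endothelial markers numbered 0 or 1 of 6, with Pecam1 and Cdh5 at none in every library, and fibroblast and pericyte markers 0 to 2 of 6. The part of these markers in the differences between groups was not tested.

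Sequences at or near the summits that the results turn on are shown first. They come from the RefSeq promoter entries and from windows of 300 bases centred on a region's median summit. All are on GRCm38 (mm10), written 5′ to 3′ on the strand of the gene, with capitals marking ACGTG or GCGTG on either strand. The palindrome CACGTG holds ACGTG on both strands and counted as 2 matches. Promoters were printed up to the base before the first annotated untranslated base. RefSeq entries matched 8 of the 10 genes; Epas1 and Ndrg1 had none. The promoters of Hif1a (chr12:73907617-73907903, plus strand), Vhl (chr6:113623744-113623958, plus), Egln3 (chr12:54203861-54204124, minus) and Vegfa (chr17:46032370-46032627, minus) are given because they contrast a start with matches and starts with few or none.
Hif1a promoter: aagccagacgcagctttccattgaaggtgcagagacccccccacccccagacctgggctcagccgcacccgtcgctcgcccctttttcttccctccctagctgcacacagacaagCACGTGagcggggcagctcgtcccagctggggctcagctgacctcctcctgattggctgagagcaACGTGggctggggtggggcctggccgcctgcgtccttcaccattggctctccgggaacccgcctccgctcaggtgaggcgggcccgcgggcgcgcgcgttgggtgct
Vhl promoter: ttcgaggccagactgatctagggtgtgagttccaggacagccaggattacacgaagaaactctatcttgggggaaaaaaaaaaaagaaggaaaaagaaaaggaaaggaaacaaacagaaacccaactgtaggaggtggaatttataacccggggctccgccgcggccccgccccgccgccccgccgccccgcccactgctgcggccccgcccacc
Egln3 promoter: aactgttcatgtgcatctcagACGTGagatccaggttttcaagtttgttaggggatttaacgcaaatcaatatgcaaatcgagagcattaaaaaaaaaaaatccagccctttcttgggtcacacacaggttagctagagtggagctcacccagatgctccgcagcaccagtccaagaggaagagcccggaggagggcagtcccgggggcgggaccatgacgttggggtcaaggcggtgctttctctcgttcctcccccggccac
Vegfa promoter: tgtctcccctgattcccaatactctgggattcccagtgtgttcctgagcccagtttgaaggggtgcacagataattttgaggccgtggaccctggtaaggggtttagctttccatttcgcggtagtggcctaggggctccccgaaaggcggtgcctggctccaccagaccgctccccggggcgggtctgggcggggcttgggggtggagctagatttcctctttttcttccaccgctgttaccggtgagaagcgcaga

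Summit windows are given for an intronic region of Egln3 (chr12:54191150-54191449, minus), whose rank differed most between groups, and for an intronic region of Vegfa (chr17:46030878-46031177, minus). The third is for the start region of Bnip3 (chr7:138909594-138909893, minus). This Bnip3 window lay just upstream of the start itself and held the most matches among these genes.
Egln3 intronic window: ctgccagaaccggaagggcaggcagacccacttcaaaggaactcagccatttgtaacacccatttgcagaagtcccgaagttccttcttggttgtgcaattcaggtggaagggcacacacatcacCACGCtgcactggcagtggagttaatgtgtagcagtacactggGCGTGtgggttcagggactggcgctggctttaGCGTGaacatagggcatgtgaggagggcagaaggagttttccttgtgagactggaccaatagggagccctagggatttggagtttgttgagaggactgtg
Vegfa intronic window: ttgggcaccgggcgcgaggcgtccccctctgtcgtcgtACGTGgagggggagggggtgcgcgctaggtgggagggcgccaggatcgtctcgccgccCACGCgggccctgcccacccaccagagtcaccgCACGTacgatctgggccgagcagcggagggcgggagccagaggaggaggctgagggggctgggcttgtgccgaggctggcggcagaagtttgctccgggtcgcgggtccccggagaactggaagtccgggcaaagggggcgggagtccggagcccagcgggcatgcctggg
Bnip3 start window: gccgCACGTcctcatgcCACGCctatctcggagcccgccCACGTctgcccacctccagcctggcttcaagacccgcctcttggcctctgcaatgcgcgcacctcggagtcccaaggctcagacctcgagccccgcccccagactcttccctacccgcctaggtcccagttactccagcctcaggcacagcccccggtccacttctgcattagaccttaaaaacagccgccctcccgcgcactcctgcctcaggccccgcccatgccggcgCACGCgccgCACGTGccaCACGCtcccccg

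The Bnip3 start window held 7 matches, including the palindrome CACGTG. The Hif1a promoter held 3, of which 2 were a palindrome. The Egln3 intronic window held 3 matches, all GCGTG, and the Vegfa intronic window held 3, of which 2 were ACGTG. The Egln3 promoter held 1 match and the printed Vhl and Vegfa promoters none, as did their complete entries of 300 bases. The Vhl summits all lay past the end of its printed promoter, and the Vhl summit window, over its first coding exon, held 4 matches. Such short letters are common: 43.8% of 32851 RefSeq promoters held at least 1, against 7 of the 9 entries for these genes. Among 52360 open regions of the 17 libraries 38.3% held 1 in the 300 bases at the summit, and 15 of the 32 regions of these genes did. Regions within 1 kb of a protein-coding start held a match in 63.7% of cases and those farther away in 29.4%, and the counts here were 8 of 12 and 7 of 20. A match describes letters only and no binding was measured.

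The 10 genes carried 379 summits in the lists of equal length, of which 200 lay within 1 kb of one of the gene's own protein-coding starts. By position 145 lay upstream of the gene, 187 in introns, 30 in untranslated exons and 14 in coding exons. Extending each summit by 250 bp and merging over libraries gave 32 regions with a summit in at least 2 libraries, and 9 of these had one in every library. Of those 9 regions, 8 lay within 1 kb of the gene's own start. The exception and 1 of the 8 belonged to the gene model of Epo and lay at the starts of Pop7 and Gnb2. At gene level 9 of the 10 had a summit in all 17 libraries, against 9093 of 21938 protein-coding genes (41.4%), and Vhl had one in 13. The 9 include Epo, whose window takes in the starts of Pop7 and Gnb2 and whose short transcripts had a summit in 1 library, so that its place among the means is not its own. The order of the mean percentiles was Arnt, Hif1a, Ndrg1, Epo, Epas1, Bnip3, Egln3, Egln1, Vegfa and Vhl. Against the genes with a summit in all libraries, whose median was 82.3, Arnt stood at the 84.3rd percentile, Egln1 at the 10.3rd and Vegfa at the 5.81st. Neighbours in that order from Ndrg1 to Egln3 differed by less than the spread between mice.

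**Figure D1:**
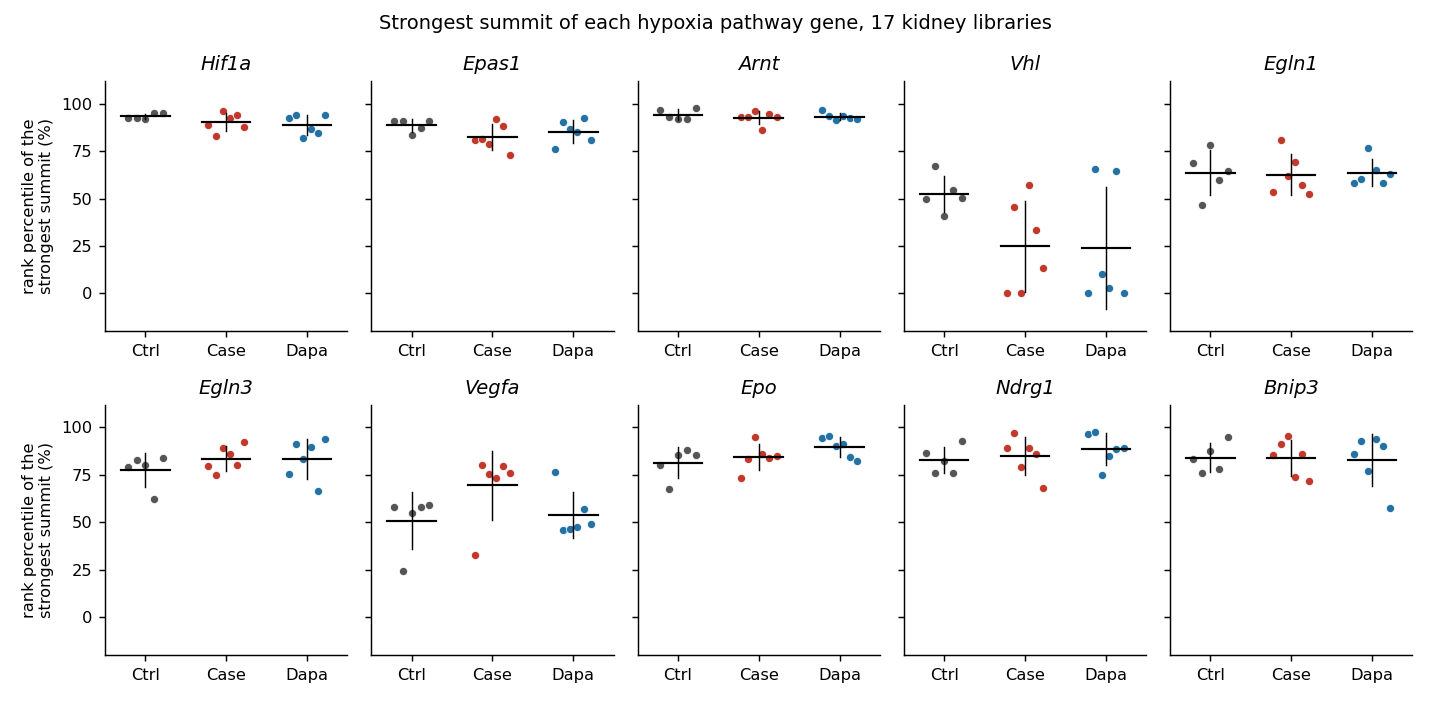
Rank percentile of the strongest summit of each gene (vertical axis, 0 to 100) in the 17 libraries, 1 point a mouse, with a horizontal line at the group mean and a vertical bar of 1 SD on either side. Arnt and Hif1a stayed above 80 in every library, Vegfa spread from 24.1 to 80.1, and Vhl was at 0 in 2 Case and 2 Dapa libraries.

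Among the HIF subunits, Arnt and Hif1a had their strongest summit at 1 start in every library, and Epas1 had it at the start in 12 of 17. Arnt (chr3:95434388-95497240, plus), the common partner subunit, had its strongest summit 77 bp upstream of a start in the median library, with percentiles of 96.7, 93.1, 91.8, 91.8 and 97.8 in Ctrl. In Case the lowest, median and highest values were 86.4, 93.1 and 96.3, and in Dapa they were 91.3, 92.9 and 96.5. The 3 groups overlapped throughout, and the differences were −1.50 for Case minus Ctrl (exact permutation test, 2-sided, p = 0.472) and 0.43 for Dapa minus Case (p = 0.842, same exact test).

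Hif1a (chr12:73901375-73947530, plus) encodes the alpha subunit present in most cell types. Its strongest summit lay in 1 region in every library, with a median position 65 bp upstream of the start of Hif1a-203 and inside an intron of the longer Hif1a-202. It lay upstream of that start in all 5 Ctrl libraries, in 3 of Case and in 5 of Dapa, and 37 to 95 bp past it in the others. Percentiles in Ctrl were 92.5, 92.3, 92.1, 94.9 and 94.9, in Case 82.8 to 96.0 with a median of 90.7, and in Dapa 82.1 to 94.3 with a median of 89.7. The Ctrl libraries stood close together inside the wider range of the db/db libraries. Means were 93.3 ± 1.43 (SD, n = 5) in Ctrl, 90.4 ± 4.83 (n = 6) in Case and 89.0 ± 5.29 (n = 6) in Dapa, and all 12 db/db mice against Ctrl gave −3.64 (exact permutation test, 2-sided, p = 0.122). With summits scoring at least 5, which leaves lists of different length, that difference was −8.39 and Dapa minus Ctrl was −8.07 (exact permutation p = 0.0197 and 0.0173). In the equal lists Dapa minus Ctrl was −4.32 (exact p = 0.139). A second intronic region of Hif1a, at chr12:73930179-73930812, was found in 4 Case libraries against 2 of Ctrl and 2 of Dapa. Fisher's exact test gave p = 0.567 there for Case against Ctrl. Another intronic region, at chr12:73904986-73905565, was found in 1 Case library against 2 of Ctrl and 2 of Dapa.

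Epas1 (chr17:86753700-86833410, plus) encodes the second alpha subunit, HIF-2α, which drives erythropoietin. Its strongest summit was at the start (chr17:86753215-86754383) in 12 libraries and in an intron 16327 bp past it (chr17:86769720-86770363) in 5. At the start, Ctrl libraries had percentiles of 91.1, 90.0, 82.4, 87.2 and 90.7, Case 80.6, 81.2, 78.9, 90.5, 71.6 and 72.9, and Dapa 76.1, 90.6, 86.5, 85.2, 88.7 and 81.1. Of the 6 Case libraries 5 were below every Ctrl library, and Case 4 was among the Ctrl values. The difference of Case minus Ctrl was −8.95 (exact permutation test, 2-sided, p = 0.0260, adjusted p = 0.254), and that of Dapa minus Case was 5.41 (exact p = 0.154). Over the alternatives Dapa minus Case ran from 3.86 to 10.8, with an unadjusted p under 0.05 in 1 of 16. With summits scoring at least 5 the Case minus Ctrl difference was −18.9 (exact p = 0.00866), and with lists of 14851 summits it was −17.9 (exact p = 0.0260), since the same ranks stretch over the whole scale in a shorter list. Leaving out Ctrl 1 or Ctrl 5 put the unadjusted p for Case against Ctrl at 0.05 or more. Within this region the strongest summit lay 150 to 235 bp before the start in 4 Ctrl, 3 Case and 3 Dapa libraries, and 364 to 419 bp past it in the others.

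The intronic region of Epas1 was more variable. Its percentiles were 81.2, 91.1, 83.4, 83.5 and 75.8 in Ctrl, 67.4, 34.2, 0, 91.9, 88.4 and 66.2 in Case and 70.7, 82.5, 78.1, 76.5, 92.5 and 81.1 in Dapa. Case 2 and Case 3 had the lowest values of the 17 libraries, while Case 4 had a value above every Ctrl library. Means were 83.0, 58.0 and 80.2, and the difference of Case minus Ctrl did not pass the exact permutation test (p = 0.130). By the strongest summit of the whole gene, Epas1 gave −6.33 for Case minus Ctrl (exact permutation test p = 0.0823, adjusted p = 0.412). Over the alternatives this gene-level difference ran from −16.1 to −4.45, with an unadjusted p under 0.05 in 3 of 22.

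**Figure D2:**
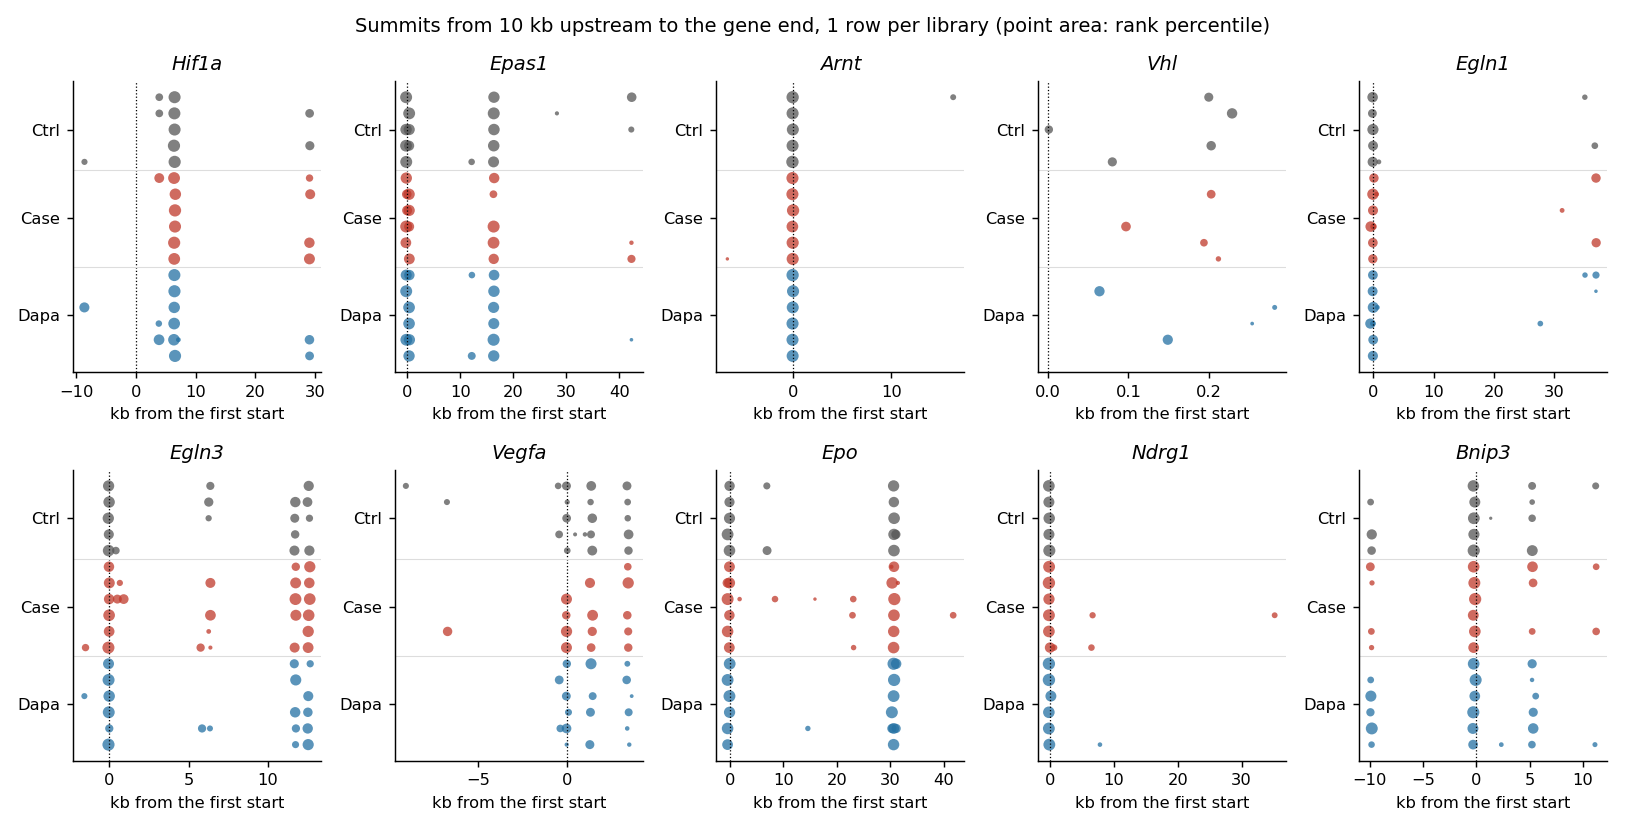
Distance of every summit from the gene's first annotated start in kb (horizontal axis), 1 panel a gene and 1 row a library of the equal lists, with point area by rank percentile. Summits of Arnt, Vhl and Ndrg1 gathered at the start, whereas Egln3 and Epas1 had further clusters in introns.

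Of the genes that sense oxygen and remove HIF, Vhl had the weakest summits. Vhl (chr6:113623959-113631633, plus) encodes the substrate-binding subunit of the ubiquitin ligase that takes hydroxylated HIF-alpha. It had a single region, chr6:113623710-113624491, with summits of the complete lists 1 to 319 bp past the start, over the first exon, and none upstream. Ctrl percentiles were 49.5, 67.2, 41.0, 54.4 and 50.5, Case 0, 45.4, 0, 57.0, 33.4 and 13.2, and Dapa 0, 65.6, 10.3, 2.9, 64.4 and 0. Every Ctrl library had a summit and 4 of 6 in each db/db group did (Fisher's exact test for Case against Ctrl, p = 0.455), and 2 libraries of each db/db group lay within the Ctrl range. Group means were 52.5 ± 9.53 (Ctrl), 24.8 ± 24.1 (Case) and 23.9 ± 32.1 (Dapa).

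The Vhl difference was −27.7 for Case minus Ctrl (exact permutation test, 2-sided, p = 0.0433, Benjamini-Hochberg adjusted p = 0.322) and −28.2 for all 12 db/db mice (exact p = 0.0440, adjusted p = 0.289). Dapa minus Case was −0.96 (exact permutation p = 0.952), and Dapa minus Ctrl was −28.7 (exact p = 0.0823). Over the alternatives Dapa minus Case ran from −9.30 to 8.98 and changed sign in 8 of 20. In the complete lists a Vhl summit was present in 16 of 17 libraries, all but Case 3, so the zeros mostly marked summits outside the strongest 29702. The Vhl differences moved with the list. Case minus Ctrl was −6.49 with lists of 14851 summits, −32.7 with the complete lists and −36.9 with summits scoring at least 5 (exact permutation p = 0.455, 0.00866 and 0.00433). All db/db minus Ctrl was −2.66, −33.6 and −32.4 under the same settings (exact p = 0.606, 0.0236 and 0.0133), and Dapa minus Ctrl turned to 1.18 with the shorter lists. The complete lists and those with a score minimum differ in length between libraries, so their ranks are not those of equal lists. In the complete lists the Vhl means were 68.0 in Ctrl, 35.3 in Case and 33.5 in Dapa. Leaving out 1 mouse at a time gave −34.1 to −22.7 for Case minus Ctrl, and p was 0.05 or more without Ctrl 1, 2, 4 or 5 or Case 1, 3, 5 or 6. For all db/db minus Ctrl it was 0.05 or more without any 1 of the Ctrl mice, Case 1, 3 or 6 or Dapa 7, 9, 10 or 12.

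Egln1 (chr8:124908587-124949324, minus) encodes PHD2, the main prolyl hydroxylase acting on HIF-1α. Its start region, with a median summit 88 bp upstream, was present in all libraries, and the gene had percentiles of 68.9, 46.4, 78.5, 59.8 and 64.3 in Ctrl, 52.6 to 80.9 in Case (median 59.5) and 58.1 to 76.9 in Dapa (median 61.7). The groups overlapped, with means of 63.6 ± 11.8, 62.6 ± 10.9 and 63.6 ± 7.05 and a Case minus Ctrl difference of −0.99 (exact permutation test p = 0.892). That difference ran from −16.6 with summits scoring at least 5 (exact permutation p = 0.0909) to 2.73, and changed sign in 7 of 22 alternatives. Its promoter entry, with 86% G and C, was the richest in these bases among the 9.

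Egln3 (chr12:54178981-54203860, minus) encodes PHD3, itself a target that HIF induces. At its start (chr12:54202699-54204169) it had a summit in all 17 libraries, with means of 77.7 in Ctrl, 76.6 in Case and 78.8 in Dapa, and the exact permutation p was 0.844 for Case against Ctrl. The region with the largest difference between groups lay 12560 bp past the start, in an intron, at chr12:54190955-54191625. Its percentiles were 64.6, 58.2, 29.2, 0 and 64.1 in Ctrl, 79.6, 69.1, 86.4, 84.7, 79.9 and 73.0 in Case, and 29.4, 0, 62.6, 54.5, 66.4 and 78.4 in Dapa. Every Case library was above every Ctrl library, and 5 of the 6 Dapa libraries were below every Case library, Dapa 12 being the exception.

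Means at this intronic region were 43.2 in Ctrl, 78.8 in Case and 48.5 in Dapa. Case minus Ctrl was 35.6 (exact permutation test, 2-sided, p = 0.00433, the smallest these group sizes can give, adjusted p = 0.150), and Dapa minus Case was −30.2 (exact p = 0.00866, adjusted p = 0.983). Dapa minus Ctrl was 5.34 (exact permutation p = 0.762). Neither difference passed the threshold after adjustment over all regions. Each kept an unadjusted p under 0.05 when any 1 mouse was left out, and lost it when only summits with a score of at least 5 were kept, where the differences were 24.8 and −31.0 (exact permutation p = 0.0909 and 0.0584). With summits extended by 500 bp the differences were 22.9 and −13.0 (exact p = 0.00433 and 0.0216). The test on region ranks was added after the data had been seen, and this region was singled out among 21 tested. Groups without overlap in this direction were found in 0.573% of 28632 regions. A neighbouring intronic region, chr12:54191855-54192456, had means of 44.0, 57.2 and 43.9 with overlapping groups (exact permutation p = 0.463 for Case against Ctrl).

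**Figure D3:**
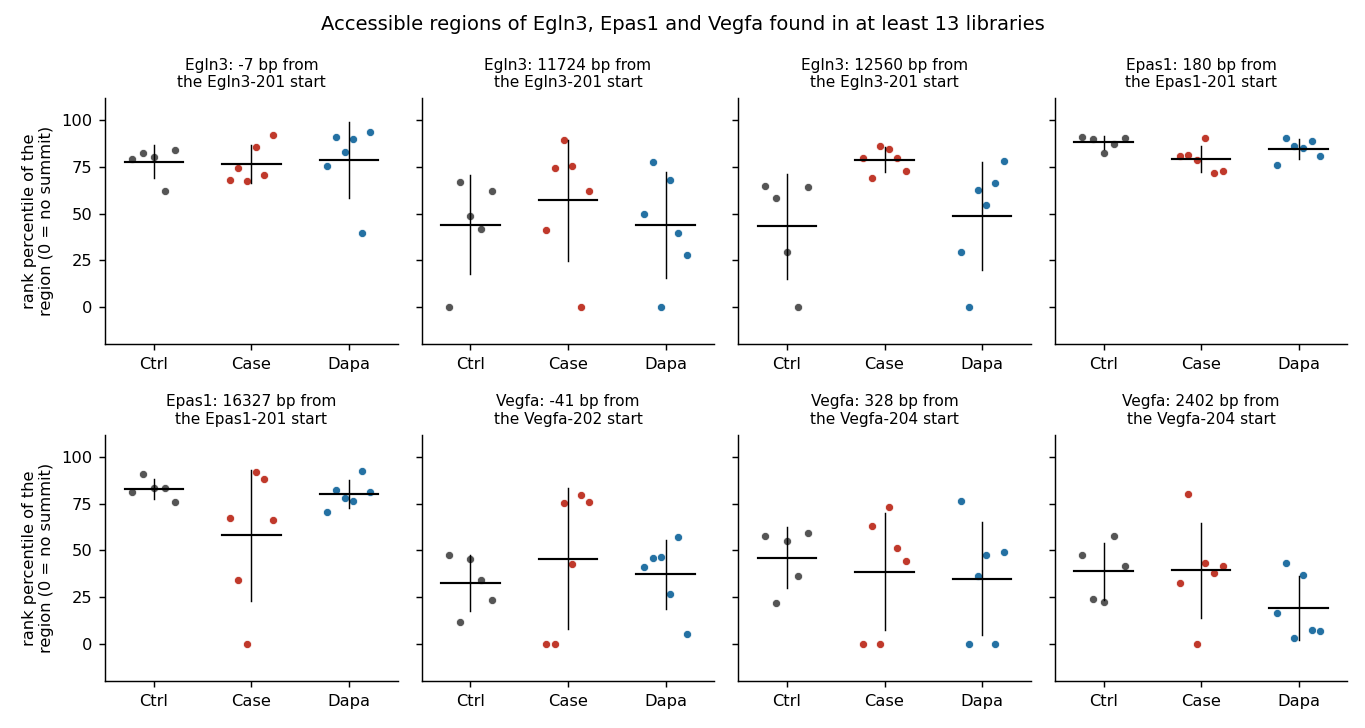
Rank percentile (vertical axis, 0 to 100) in each library at 8 regions of Egln3, Epas1 and Vegfa, 1 point a mouse, with a horizontal line at the group mean and a vertical bar of 1 SD on either side. At the Egln3 intron the Case libraries ran from 69.1 to 86.4, above the Ctrl libraries at 0 to 64.6, while at the Egln3 start the groups overlapped.

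Among the targets, Vegfa was the most variable between libraries. Vegfa (chr17:46016993-46032369, minus) encodes the main growth factor of blood vessels, made in the kidney by podocytes and tubules. Ctrl percentiles were 57.9, 24.1, 55.1, 57.8 and 59.2, Case 32.7, 80.1, 75.5, 73.4, 79.6 and 76.0, and Dapa 76.6, 46.1, 46.6, 47.5, 57.1 and 48.9. Of the 6 Case libraries 5 were above every Ctrl library and Case 1 was below 4 of the 5, while 5 of the 6 Dapa libraries lay within the Ctrl range and Dapa 7 lay above it. Means were 50.8 ± 15.0, 69.5 ± 18.2 and 53.8 ± 11.9.

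The Vegfa difference of Case minus Ctrl was 18.7 (exact permutation test, 2-sided, p = 0.152, adjusted p = 0.519), and Dapa minus Case was −15.7 (exact p = 0.0801, adjusted p = 1). Neither passed the test in the equal lists with all mice. Without Ctrl 2 the first was 12.0 (exact permutation p = 0.333). With the complete lists it was 7.32, with summits scoring at least 5 it was 5.64, and with lists of 14851 summits it was 32.8 (exact permutation p = 0.234, 0.675 and 0.0260), the second being −33.6 in the shorter lists (exact p = 0.0584). Without Case 1 the differences were 26.1 (exact permutation p = 0.00794, adjusted p = 0.214) and −23.1 (exact p = 0.0173), and without Dapa 7 the second was −20.3 (exact p = 0.0260). With only summits within 1 kb of a start the differences were 15.2 and −7.43 (exact permutation p = 0.355 and 0.665).

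The high Vegfa values in Case did not come from a single site. The strongest summit lay at the start, in chr17:46031677-46033129, in 3 Case and 3 Dapa libraries but in no Ctrl library. It lay in the intronic region printed above, within chr17:46030689-46031623 and 328 bp past the start of Vegfa-204, in 3 Ctrl, 1 Case and 3 Dapa libraries, and in a second intronic region, chr17:46028497-46029279, in 2 Ctrl and 2 Case libraries. At the start the percentiles were 47.5, 11.6, 45.2, 34.3 and 23.5 in Ctrl, 0, 0, 75.5, 42.4, 79.6 and 76.0 in Case and 41.0, 46.1, 46.6, 26.8, 57.1 and 5.4 in Dapa. The groups overlapped there: Case 3, 5 and 6 were the highest and Case 1 and 2 had no summit in the equal lists. In the complete lists Case 1 had a summit there and Case 2 had none. The second intronic region had means of 38.7, 39.3 and 19.0, and the exact permutation p for Dapa against Case was 0.158. A second RefSeq promoter of Vegfa, at chr17:46025114-46025413, held no summit in any library, and the first held one in 12.

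Epo encodes erythropoietin, and its value needs its gene model. The annotation gives Epo (chr5:137483020-137533242, minus) a long transcript, Epo-202, that reaches across Pop7, which encodes an RNase P subunit, to the start of Gnb2, which encodes a G protein beta subunit. The strongest summit in the window lay 70 bp upstream of the Pop7 start (chr5:137501588-137503292) in 12 libraries and 11 bp past the Gnb2 start (chr5:137532985-137533921) in 5. At the transcripts that start at chr5:137485816, the RefSeq start, no complete list had a summit in the gene body, and none had one in the RefSeq promoter. Upstream of that start, over 10 kb, Case 4 had a summit in the equal list and Case 2 and Case 4 did in the complete lists, and over 10 kb downstream of the gene Case 5 and Dapa 12 did.

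The Epo window values therefore describe summits at Pop7 and Gnb2. They were 80.4, 67.6, 85.5, 88.3 and 85.5 in Ctrl, 73.5 to 95.2 in Case (median 84.3) and 82.4 to 95.5 in Dapa (median 90.6). Dapa minus Ctrl was 8.22 with overlapping groups (exact permutation test p = 0.0736, adjusted p = 0.379), and 9.66 without Dapa 12 (exact p = 0.0317). With the short transcripts alone Epo had a summit in 1 library and could not be tested.

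Ndrg1 (chr15:66929318-66969640, minus), a stress-response gene that HIF induces, had its strongest summit in 1 region at the start in every library, at a median of 146 bp upstream. It lay past the start in 1 Case library, by 29 bp, and in 1 Dapa library, by 160 bp. Percentiles were 86.6, 76.1, 82.5, 76.2 and 92.7 in Ctrl, 68.2 to 97.1 in Case (median 87.6) and 75.1 to 97.7 in Dapa (median 88.9). Groups overlapped, with means of 82.8 ± 7.09, 84.9 ± 9.97 and 88.6 ± 8.26, and Dapa minus Ctrl was 5.79 (exact permutation p = 0.242). Over the alternatives Dapa minus Ctrl ran from 1.65 to 11.6, and Case minus Ctrl changed sign in 3 of 22.

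Bnip3 (chr7:138890836-138909519, minus) encodes a mitochondrial protein that promotes mitophagy. Its start region, with a median summit 238 bp upstream, was strongest in 15 libraries, and a region 9878 bp upstream (chr7:138919051-138920049) was strongest in Dapa 9 and Dapa 11. Gene-level percentiles were 83.5, 75.9, 87.7, 78.3 and 95.1 in Ctrl, 72.0 to 95.7 in Case (median 85.7) and 57.3 to 93.9 in Dapa (median 88.2). These ranges overlapped and the Case minus Ctrl difference was −0.11 (exact permutation p = 0.978). That difference ran from −6.85 to 2.63 over the alternatives and changed sign in 6 of 22. The far upstream region was found in 3 Ctrl libraries, 5 of Dapa and every Case library, with means of 26.6 in Ctrl, 36.7 in Case and 42.5 in Dapa. For Case against Ctrl, Fisher's exact test gave p = 0.182 and the exact permutation test p = 0.498. In the complete lists it was found in 4 Ctrl, 6 Case and 6 Dapa libraries. Its Case summits lay as far as −10293 bp from the start, past the 10 kb window of the gene. An intronic region, chr7:138903674-138904528, was found in 4 Ctrl, 3 Case and 6 Dapa libraries (Fisher's exact test, p = 0.545 for Case against Ctrl).

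**Figure D4:**
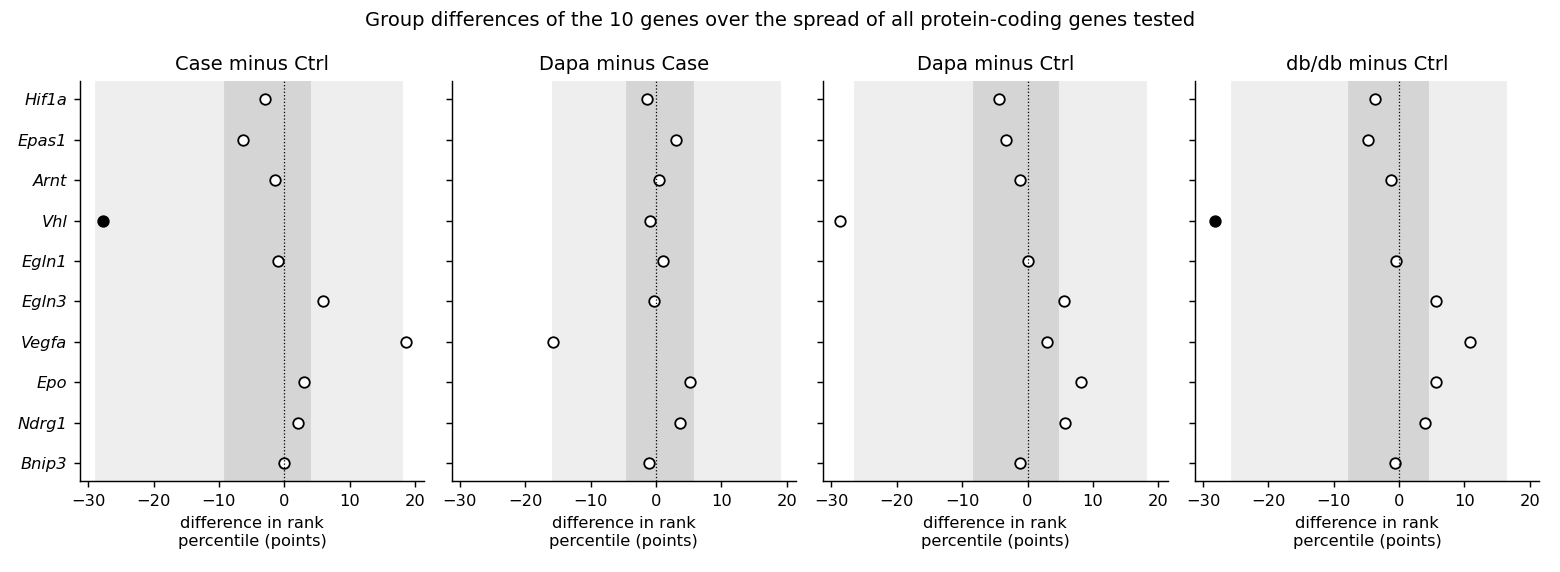
Difference in mean rank percentile (horizontal axis, percentile points) of each gene in each comparison, over light and dark bands from the 5th to the 95th and from the 25th to the 75th percentile of all tested genes, with filled points where the unadjusted exact permutation p was under 0.05. Vhl lay lowest in the comparisons with Ctrl, at −27.7 for Case, and Vegfa highest for Case against Ctrl at 18.7.

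Counted over the list, Vhl alone of 10 had an unadjusted exact permutation p under 0.05 for Case against Ctrl, where 14.3% of 14560 genes did. For Dapa against Case 0 of 10 did against 4.21% of 14717 genes, and for Dapa against Ctrl 0 of 10 against 14.9% of 14487. For all db/db mice against Ctrl, Vhl alone did, against 16.2% of 15422 genes. After Benjamini-Hochberg adjustment of these exact tests none of the 10 was called in any comparison, with 0% of all genes called in the first 3 and 0.674% (104 genes) in the last. Those 104 calls fell to 0 when any 1 mouse other than Case 2 was left out. The lowest adjusted p over all genes was 0.169 for Case against Ctrl, 0.965 for Dapa against Case and 0.169 for Dapa against Ctrl. In these exact tests p could not fall below 0.00433 with 5 mice against 6, or 0.00216 with 6 against 6. The limma test, whose p has no such floor, called 127, 0, 68 and 165 genes after adjustment in the 4 comparisons, and none of the 10. None of the 10 had groups without overlap at gene level in any comparison, where 2.55%, 0.224%, 2.56% and 0.674% of all genes tested did in the same order.

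The median difference over the 10 genes was −0.55 for Case minus Ctrl, 0.06 for Dapa minus Case, −0.52 for Dapa minus Ctrl and −0.57 for db/db minus Ctrl. Over all genes tested it was −1.48, 0.23, −1.13 and −1.12. The central 90% of genes ran from −28.9 to 17.9 for Case minus Ctrl, so that Vhl at −27.7 lay inside it and Vegfa at 18.7 just past its upper end. For Dapa minus Ctrl it began at −26.3 and for db/db minus Ctrl at −25.6, and Vhl lay below it in both.

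Regions were counted in the same way. By presence, with Fisher's exact test, none of the 4, 2, 3 and 13 regions of these genes that could be tested in the 4 comparisons had an unadjusted p under 0.05, where 10.2%, 1.18%, 7.91% and 9.29% of all regions did. By rank percentile with the exact permutation test, 3 of 21 regions did for Case against Ctrl (the Epas1 start, Vhl and the Egln3 intron) against 14.9% of 28632, 1 of 21 for Dapa against Case (the Egln3 intron) against 3.89%, 0 of 21 for Dapa against Ctrl against 13.9%, and 1 of 24 for db/db against Ctrl (Vhl) against 14.5%. No region of these genes passed adjustment, where 0%, 0%, 0% and 0.761% of all regions did in the order of the comparisons, the last falling to 0 without any 1 mouse other than Dapa 11. A p that misses the threshold does not show that values did not differ.

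A further set of 48 pathway genes was listed by name, of which 35 had a summit in every library and Epor, the erythropoietin receptor gene, in none. By the exact permutation test 4 of 41 had an unadjusted p under 0.05 for Case against Ctrl, 0 of 41 for Dapa against Case, 6 of 41 for Dapa against Ctrl and 6 of 42 for db/db against Ctrl, and none passed adjustment. These shares were 9.76%, 0%, 14.6% and 14.3%, each below the 14.3%, 4.21%, 14.9% and 16.2% of all genes, so the genes named next are given as values only. Angptl4, a lipase inhibitor induced by fasting and hypoxia, ran from 33.7 to 84.0 in Ctrl, 77.1 to 94.8 in Case and 80.0 to 95.6 in Dapa. Its db/db minus Ctrl difference was 19.0 (exact permutation p = 0.00420, adjusted p = 0.101). Mxi1, a Myc antagonist, gave 5.73 for Case minus Ctrl (exact permutation p = 0.0390).

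On the lower side, Pgk1, a glycolytic enzyme gene, gave −22.6 for Case minus Ctrl and −13.9 for Dapa minus Ctrl (exact permutation p = 0.0390 and 0.0260). Egln2, encoding the prolyl hydroxylase PHD1, gave −13.9 for Dapa minus Ctrl (exact p = 0.00433, adjusted p = 0.169), with Dapa at 56.8 to 75.7 below every Ctrl library at 76.2 to 95.9, as in 1.87% of the 14487 genes tested. Hif3a, a regulatory alpha subunit, gave −6.53 in that comparison (exact permutation p = 0.0216). In the same comparison Pfkfb4, a glycolytic regulator, gave 14.3 and Hmox1, heme oxygenase, gave 5.19 (exact permutation p = 0.0216 and 0.0476).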

How the data were processed

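ATAC-seq libraries from kidneys of 17 mice were analysed, grouped by the labels into Ctrl (5), Case (6) and Dapa (6), 1 library a mouse. The authors aligned reads to mm10 with Bowtie2 within an ENCODE workflow, filtered out duplicates and blacklisted sites, shifted reads to the transposase cut sites and called peaks in each library with MACS2. The deposited files list summits with a score, the −log10 of a p-value or q-value as MACS2 writes it; which one, and the versions, are not given in the sources used here. Read depth is unknown, so no counting interval was given; lists of different length set the precision, which is why ranks in the strongest 29702 summits were compared. The lowest score of each list was near 2.0, and the score at which the equal lists ended ran from 2.01 to 5.53. A score minimum of 5 therefore left lists of different length. The complete lists also differ in length, and in both settings ranks are not those of equal lists.

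The members and gene lists were chosen with earlier results of these data known. Gene models came from the GENCODE annotation of mm10 and sequences from RefSeq on GRCm38.p6. Each protein-coding gene took the highest rank percentile among summits from 10 kb upstream to its end, and 0 with none. Groups were compared by exact permutation tests (2-sided) of mean percentiles, for genes with a summit in at least 4 compared libraries, with Benjamini-Hochberg adjustment over all such genes and a threshold of 0.05. Regions (summits extended by 250 bp, merged, in at least 2 libraries) were compared by Fisher's exact test of presence and, added after seeing the data, by the permutation test of ranks. The smallest possible p was 0.00433 for 5 against 6 mice, 0.00216 for 6 against 6 and 0.000323 for 5 against 12. The named genes were the 10 members and, of 48 further pathway genes, up to 5 in each direction per comparison with the smallest unadjusted p under 0.05; regions named by rule were each member's highest by mean percentile and any with an unadjusted p under 0.05, and the others were chosen after their values were seen. Some items that these rules select are not reported here. Tests were tested on simulated data. Alternatives were complete and shorter lists, score minimums, other windows and extensions, limma 3.58.1, a replicate block and each mouse left out. Python 3.11.15 with scipy 1.17.1 and R 4.3.3 were used.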

Additional observations from a re-analysis of the deposited data

Results flagged for a closer look

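In 6 of 30 groups of the 10 genes a single library stood apart by Dixon's criterion, whose nominal rate is about 1 in 20 groups, or 1.5 of 30. That rate holds for independent normal values. These are bounded ranks from the same 17 libraries, so the 2 counts cannot show an excess. For Vegfa a single library stood apart in all 3 groups: Ctrl 2 at 24.1 against 55.1 to 59.2 in the other Ctrl libraries, Case 1 at 32.7 against 73.4 to 80.1, and Dapa 7 at 76.6 against 46.1 to 57.1. Arnt in Case 4, at 86.4, lay below the other Case libraries at 93.0 to 96.3. Egln1 in Dapa 9, at 76.9, lay above the others at 58.1 to 64.9. Egln3 in Ctrl 4, at 62.2, lay below the others at 79.4 to 84.1.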

How the results depend on the processing

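Of 1023 values of the members' differences under an alternative, none had an adjusted p under 0.05 (lowest 0.0768), and 81 had another sign than the reported value. No member difference was called to begin with, so these signs say nothing about the stability of a call. For the 10 genes at an unadjusted p under 0.05 (reported 1, 0, 0 and 1 in the order Case vs Ctrl, Dapa vs Case, Dapa vs Ctrl and db/db vs Ctrl), Case vs Ctrl gave 0 with limma, 2 with a score of at least 5, 2 within 1 kb of a start and 0 to 2 with 1 mouse left out. Dapa vs Case gave 0 to 1 with 1 mouse left out. Dapa vs Ctrl gave 1 with a score of at least 5 and 0 to 1 with 1 mouse left out. db/db vs Ctrl gave 2 with all summits, 0 with half-length lists, 3 with a score of at least 5 and 0 to 1 with 1 mouse left out. Over all genes, adjusted calls were 127 with limma for Case vs Ctrl and 68 for Dapa vs Ctrl (0 reported for both). For db/db vs Ctrl (104 reported) they were 157 over all annotated genes, 165 with limma, 0 with no filter, 849 with a score of at least 5 and 0 to 140 with 1 mouse left out, being 0 in 16 of 17 cases and 140 without Case 2. Over regions (261 reported) they were 130 with half-length lists, 957 with a score of at least 5 and 0 to 331 with 1 mouse left out, being 0 in 16 of 17 cases and 331 without Dapa 11. The cause was not tested.

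No pairing of mice was seen by the replicate numbers shared by Ctrl and Case. Correlations of same-numbered libraries ran from −0.047 to 0.052, and 1 of 5 Ctrl libraries correlated best with its own number. The best correlation of a Ctrl library with any Case library was only 0.025 to 0.056, so this check cannot decide whether a pairing existed. With the replicate block, limma called 2 genes for Case vs Ctrl, and 1 of the 10 members, Vhl, had an unadjusted p under 0.05 (0.0247). The sign-flip test gave 0 of the 10, but with 5 pairs its p cannot fall below 0.0625, so this count says nothing. Depth is unknown and weak summits such as those of Vhl move in and out of the lists with their length.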
